A study of Mus musculus with 20 samples.

Results

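The miR-183, miR-96 and miR-182 cluster comprises 3 hairpins that are encoded next to each other in the mouse genome. Its members were taken as every row named miR-183, miR-96 or miR-182, with any arm suffix and also inside joined names. This gave 6 of 1509 miRNA names, the 5p and 3p arm of each hairpin, and no joined name held a member. 4 of the 6 were named in all files. The 3 5p arms passed the filter on low counts and were tested, and the 3 3p arms are given as reads.

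Liver small RNA was read in 5 PiZ mice and 5 wild-type (WT) mice, all of the C57BL/6 strain and 6 weeks of age. The PiZ line is known as a model of alpha-1 antitrypsin deficiency: its transgene encodes human alpha-1 antitrypsin with the Z mutation, and the misfolded protein builds up inside hepatocytes instead of reaching the blood. The labels give no agent or treatment, no sex and no further description of the transgene, and the WT mice are described by genotype, strain, tissue and age alone. The counts of the 2 technical runs of each mouse were added up, and the mouse is the replicate.

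The 3 hairpins are known to be cut from one primary transcript and were first known as miRNAs of sensory cells, in the eye, the inner ear and sensory neurons. In the ear, mutations in the seed of miR-96 cause hearing loss in mice and in people. The cluster is also known to be raised in many epithelial tumours, liver cancer among them, and FOXO1, a transcription factor of glucose metabolism and growth arrest, is a known target of miR-96 and miR-182. A miRNA chooses its targets mainly by its seed, bases 2 to 8 from the 5′ end.

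The 5p arms carried nearly all reads of the cluster, and their mature sequences are shown, 5′ to 3′ from RefSeq (GRCm38.p6), to compare their seeds, which are in capitals.
miR-183-5p: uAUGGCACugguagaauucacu
miR-96-5p: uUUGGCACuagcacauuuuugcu
miR-182-5p: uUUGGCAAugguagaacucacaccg
The 3 seeds differ. miR-96-5p and miR-182-5p begin with the same 7 bases and have 6 of 7 seed positions in common. miR-183-5p matches miR-96-5p at 6 of 7 seed positions and miR-182-5p at 5 of 7. Over all 22 aligned positions the order is another one, with 18 identical positions between miR-183-5p and miR-182-5p and 13 between miR-183-5p and miR-96-5p. Among 1679 mature mouse miRNAs in the RefSeq table, the seed of miR-96-5p was found in 1 other, miR-1271-5p, which was not analysed here. The seeds of miR-183-5p and miR-182-5p were found in 0 others.

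The hairpins lie on the minus strand of chromosome 6 (GRCm38.p6), and their sequences show where the counted 5p arm, in capitals, sits before the loop.
Mir183: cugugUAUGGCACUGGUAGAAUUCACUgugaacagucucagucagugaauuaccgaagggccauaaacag
Mir96: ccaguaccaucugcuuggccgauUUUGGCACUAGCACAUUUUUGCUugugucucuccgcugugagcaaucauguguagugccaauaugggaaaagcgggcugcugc
Mir182: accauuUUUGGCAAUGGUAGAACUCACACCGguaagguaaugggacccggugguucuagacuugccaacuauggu
Mir183 is at chr6:30169668-30169737, Mir96 at chr6:30169446-30169551 and Mir182 at chr6:30165918-30165992. Only 116 bases part Mir183 from Mir96, while 3453 bases part Mir96 from Mir182. All 3 lie within Mirc35hg, a long non-coding RNA gene of 15486 bases in the RefSeq annotation, between the protein-coding genes Nrf1 and Ube2h. No protein-coding gene spans them.

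Summed library totals ran from 2433273 to 10780801 reads in PiZ mice and from 1307857 to 10012788 reads in WT mice. The files hold 2 lists of names, a longer one of 1399 names (PiZ mice 1 and 2, WT mice 1 to 3) and a shorter one of 990 names (PiZ mice 3 to 5, WT mice 4 and 5), and the longer-list libraries were the shallower ones. The file set was therefore a term of the model, and depth and file set cannot be told apart. Over the 336 tested miRNAs, PiZ mouse 5 had a mean r of log2 CPM of 0.947 with the other PiZ mice and 0.969 with the WT mice, and it was the only mouse closer to the other genotype. WT mice 1 and 3 had the lowest mean r among WT mice with the rest of their group (0.958 and 0.965). The genotype comparison is also given without PiZ mouse 5, without WT mice 1 and 3, and without all 3. Whole liver holds many cell types, and fewer cells of a type and less RNA per cell cannot be told apart in it. The labels name separate animals but give no litter, cage or dissection day, and p-values measure the spread between these mice only.

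None of the 3 5p arms passed the test between PiZ and WT liver, although all 3 had a positive log2 fold change. Of the 336 miRNAs tested, 31 passed (9.23%), 28 of them higher in PiZ (8.33%), with edgeR's quasi-likelihood test and a threshold of 0.05 on the p-value after Benjamini-Hochberg adjustment. Of the 3 arms, 0 passed in edgeR, DESeq2 or limma-voom, and of all 336 miRNAs DESeq2 called 50 and limma-voom 7. Before adjustment 1 arm, miR-182-5p, was under 0.05 in edgeR, as were 82 of all 336 miRNAs. The median log2 fold change was 0.49 over the 3 arms and 0.069 over all 336 miRNAs, of which 53% had a positive one. Upper-quartile scaling moved the median of all miRNAs to -0.095, and the arms then stood at 0.77 (miR-182-5p), 0.35 (miR-183-5p) and 0.29 (miR-96-5p). The sign was the same with TMM, RLE and upper-quartile scaling and with library totals only.

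miR-182-5p (mmu-miR-182-5p in the files), the arm known to repress FOXO factors, was the most abundant member. It had 740.2, 218.3, 514.9, 425.5 and 258.1 CPM (reads scaled to a common library size) in PiZ mice 1 to 5. In WT mice 1 to 5 it had 173.7, 212.3, 207.2, 411.8 and 140.7 CPM. PiZ mice 1, 3 and 4 lay above all WT mice, PiZ mice 2 and 5 lay among the WT values, and WT mouse 4 lay with the PiZ mice. The means were 431.4 ± 210.8 CPM over PiZ mice against 229.1 ± 106.1 CPM over WT mice (SD, n = 5 each). The log2 fold change was 0.90 (SE 0.39, 95% interval 0.044 to 1.76), with an unadjusted p of 0.0410 and an adjusted p of 0.186 (edgeR). With no filter on low counts, 852 miRNAs were tested and 83 passed, miR-182-5p among them (adjusted p = 0.0333, edgeR).

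miR-183-5p (mmu-miR-183-5p), the arm of the hairpin farthest upstream, was lower in level than miR-182-5p in every library. It had 124.4, 44.5, 66.3, 69.5 and 53.7 CPM in PiZ mice 1 to 5, and 68.6, 54.3, 67.2, 65.0 and 21.2 CPM in WT mice 1 to 5. 8 of the 10 mice lay between 44.5 and 69.5 CPM, PiZ mouse 1 was above that range, and WT mouse 5 was below it. The means were 71.7 ± 31.1 CPM over PiZ mice against 55.3 ± 19.9 CPM over WT mice (SD, n = 5 each). The log2 fold change was 0.49 (SE 0.35, 95% interval -0.28 to 1.26, adjusted p = 0.432, edgeR), smaller than the spread between mice.

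miR-96-5p, the arm known from inherited hearing loss, was the least abundant of the 3. It had 29.5, 24.0, 9.91, 9.85 and 7.41 CPM in PiZ mice 1 to 5, and 6.43, 26.1, 9.52, 15.6 and 2.71 CPM in WT mice 1 to 5. PiZ mice 1 and 2 and WT mouse 2, all of the longer-list files, held the 3 highest values, and the groups overlapped. The means were 16.1 ± 9.93 CPM over PiZ mice against 12.1 ± 9.15 CPM over WT mice (SD, n = 5 each). The log2 fold change was 0.44 (SE 0.49, 95% interval -0.63 to 1.52, adjusted p = 0.627, edgeR). Its depth was low: the 7.41 CPM of PiZ mouse 5 rest on 62 reads (95% exact Poisson interval 5.68 to 9.50 CPM) and the 6.43 CPM of WT mouse 1 on 9 reads (2.94 to 12.2 CPM). Such intervals cover counting error only, since reads are not independent molecules.

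**Figure D1:**
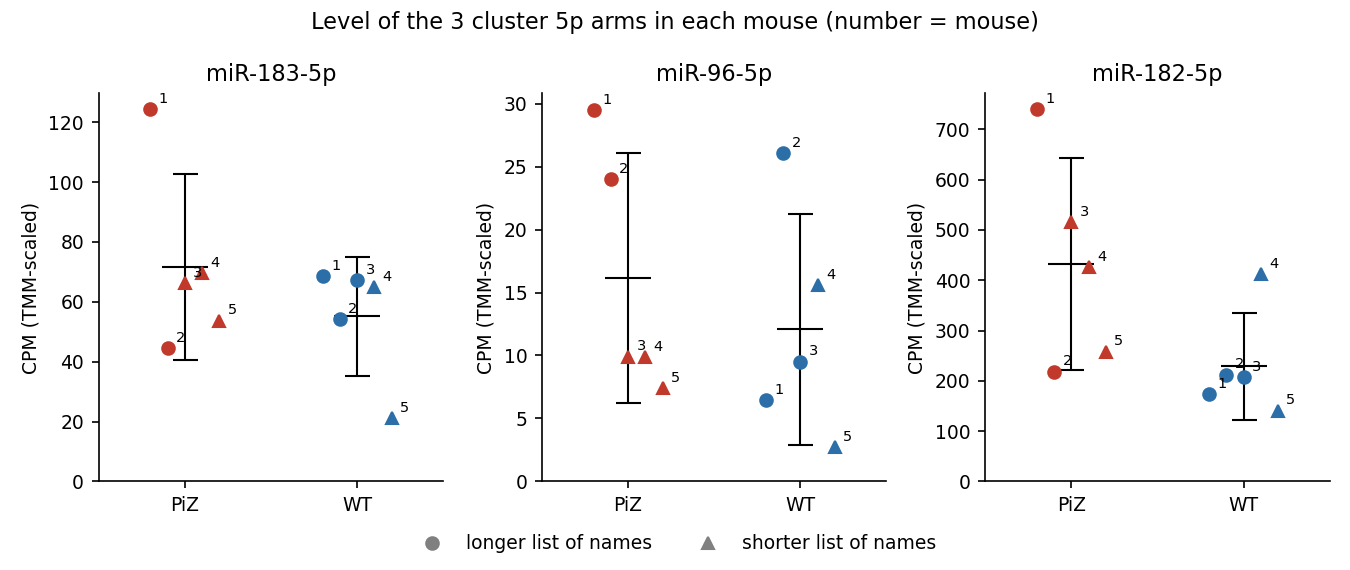
Level of miR-183-5p, miR-96-5p and miR-182-5p in CPM (linear axis from 0) in 5 PiZ and 5 WT mice, with black bars for the mean and SD, numbers for the mouse and marker shape for the list of names in its file. PiZ mouse 1 was the highest mouse and WT mouse 5 the lowest for each arm (740.2 and 140.7 CPM of miR-182-5p), and PiZ and WT mice overlapped for each arm.

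For none of the 3 arms did all 5 PiZ mice lie beyond all WT mice, which was so for 30 of all 336 miRNAs (8.93%). By level, miR-182-5p stood between rank 49 and rank 84 of the 880 miRNAs of a library in PiZ mice and between rank 56 and rank 95 in WT mice. miR-183-5p stood between rank 110 and rank 152 in PiZ and between rank 118 and rank 172 in WT mice, and miR-96-5p between rank 175 and rank 237 in PiZ and between rank 163 and rank 282 in WT mice. The biological coefficient of variation that edgeR fitted was 0.44 for miR-182-5p, 0.40 for miR-183-5p and 0.54 for miR-96-5p, against a median of 0.336 over all tested miRNAs.

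**Figure D2:**
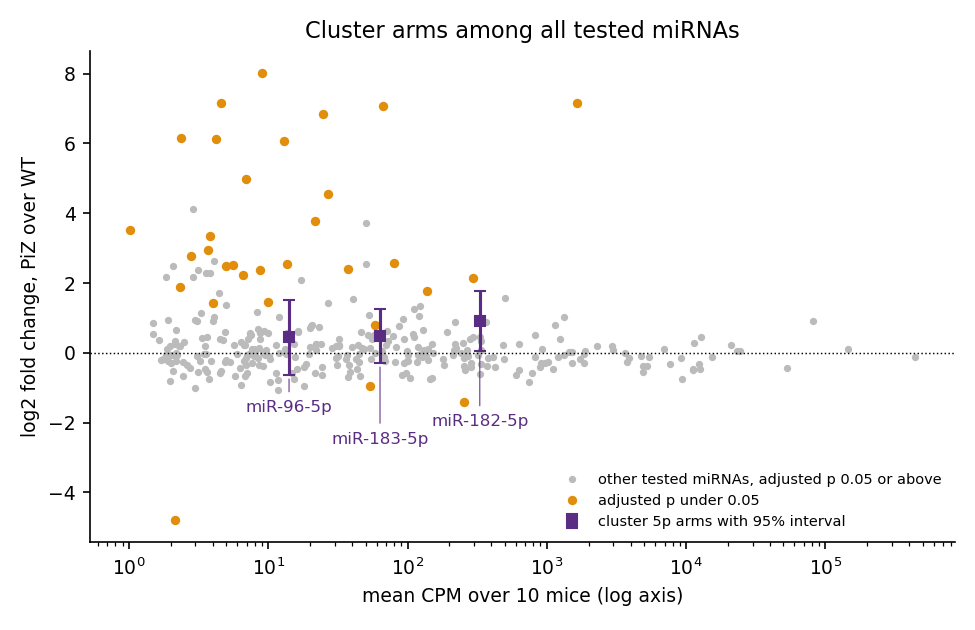
log2 fold change (PiZ over WT) against mean CPM over 10 mice (log axis) for 336 tested miRNAs, with orange points for those with an adjusted p under 0.05 and purple squares with 95% intervals for the 3 cluster arms. The 3 arms lie above 0 (0.44 to 0.90), and the intervals of miR-183-5p and miR-96-5p cross 0.

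Single mice, PiZ mouse 1 and WT mice 4 and 5, set much of the size of these differences, in both directions. Without PiZ mouse 1 the log2 fold change was 0.23 for miR-182-5p (adjusted p = 0.823, edgeR), 0.018 for miR-183-5p (adjusted p = 0.992) and 0.11 for miR-96-5p (adjusted p = 0.970). Without WT mouse 4 they were larger: 1.36 (adjusted p = 0.0976), 0.84 (adjusted p = 0.258) and 1.21 (adjusted p = 0.179). Without WT mouse 5, the lowest for each arm, they were 0.74, 0.23 and 0.19 (adjusted p of 0.323, 0.718 and 0.851). Without PiZ mouse 5 they were 1.05, 0.53 and 0.54, and without WT mice 1 and 3 they were 0.75, 0.58 and 0.012, in the same order of arms. Without all 3 of these mice they were 0.93, 0.65 and 0.099 (adjusted p of 0.213, 0.336 and 0.908). 0 of 3 passed in any of these fits. Of all 336 miRNAs, 9 passed without PiZ mouse 1, 8 without WT mouse 4, 8 without WT mouse 5 and 53 without PiZ mouse 5. Without WT mice 1 and 3 only 1 passed, and without these and PiZ mouse 5 it was 82.

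**Figure D3:**
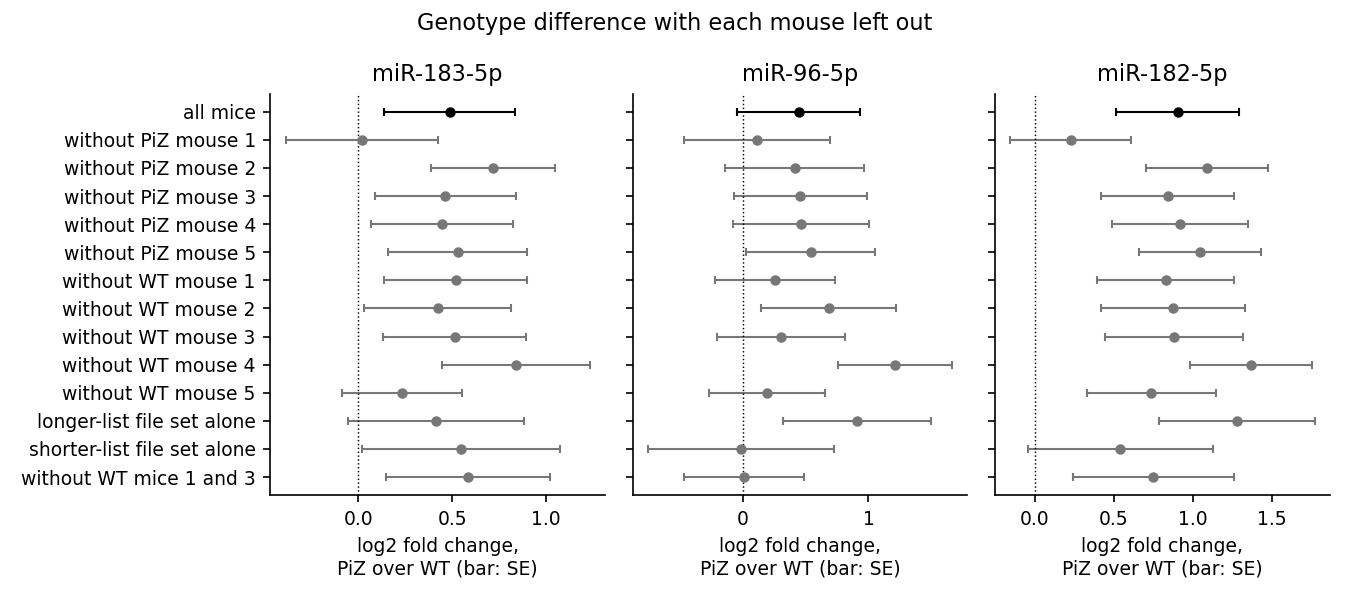
log2 fold change (PiZ over WT, bars for 1 SE) of the 3 arms over all mice and with mice left out or with 1 file set alone; the dotted line marks no difference. Without PiZ mouse 1 the values were 0.018 (miR-183-5p), 0.11 (miR-96-5p) and 0.23 (miR-182-5p), against 0.49, 0.44 and 0.90 over all mice.

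The comparison was also made within each file set. Among the 2 PiZ and 3 WT mice of the longer list, the log2 fold change was 1.28 for miR-182-5p, 0.41 for miR-183-5p and 0.91 for miR-96-5p (adjusted p of 0.199, 0.625 and 0.447, edgeR). Among the 3 PiZ and 2 WT mice of the shorter list, it was 0.54, 0.55 and -0.013 (adjusted p of 0.641, 0.591 and 0.988, edgeR). The difference between the sets (shorter minus longer) was -0.74 for miR-182-5p (SE 0.79, 95% interval -2.50 to 1.02), 0.14 for miR-183-5p (SE 0.73, -1.49 to 1.77) and -0.92 for miR-96-5p (SE 1.00, -3.14 to 1.31). Adjusted p was 0.886, 0.974 and 0.886 (edgeR), and 0 of 336 miRNAs (0%) passed in edgeR, 0 in DESeq2, with 13 and 15 at an unadjusted p under 0.05. Intervals this wide do not show that the effects are alike in the 2 sets.

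The cluster's reads were divided unevenly between its hairpins. Of the summed CPM of the 3 5p arms, miR-182-5p made up 82.2% ± 4.11 over PiZ mice against 76.9% ± 7.14 over WT mice, miR-183-5p 14.2% ± 2.10 over PiZ mice against 19.2% ± 6.46 over WT mice, and miR-96-5p 3.53% ± 2.78 over PiZ mice against 3.93% ± 2.86 over WT mice (SD, n = 5 each). Mir183 and Mir96 lie 116 bases apart, yet miR-96-5p was the lower of these neighbours in all 10 mice. The ratio of their reads, miR-183-5p to miR-96-5p, ran from 1.85 in PiZ mouse 2 to 7.24 in PiZ mouse 5, and from 2.08 in WT mouse 2 to 10.7 in WT mouse 1. Read counts of different miRNAs also depend on how well each is ligated and amplified, so these shares describe reads and need not be shares of molecules. The sum of the 3 arms was 519.2 ± 244.9 CPM over PiZ mice against 296.5 ± 120.6 CPM over WT mice (SD, n = 5 each), ranging from 286.8 to 894.0 CPM in PiZ and from 164.6 to 492.4 CPM in WT mice.

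The ratio of miR-182-5p to miR-183-5p within a library needs no scaling between libraries. It was 5.95, 4.90, 7.77, 6.13 and 4.81 reads of miR-182-5p per read of miR-183-5p in PiZ mice 1 to 5, and 2.53, 3.91, 3.08, 6.34 and 6.65 in WT mice 1 to 5. WT mice 1 to 3, of the longer list, lay below all PiZ mice, and WT mice 4 and 5, of the shorter list, lay within the PiZ range. On the log2 scale, with a pseudocount of 0.5, the mean was 2.54 ± 0.28 over PiZ mice against 2.06 ± 0.62 over WT mice (SD, n = 5 each). PiZ minus WT came to 0.48 (exact two-sided permutation test, p = 0.167). The difference was 0.79 in the longer-list set (exact p = 0.200, the smallest that 2 against 3 mice allow) and -0.084 in the shorter-list set (exact p = 0.800). Without WT mice 1 and 3 it was 0.087 (exact p = 0.750).

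miR-182-5p and miR-183-5p varied together across the 10 mice, and the strength of the relation depended on which mice were included. Over the 10 mice Pearson's r of log2 CPM was 0.746 (permutation p = 0.00822, adjusted p = 0.0247 over the 3 pairs of arms) and Spearman's rho was 0.491 (permutation p = 0.156, adjusted p = 0.234). Without PiZ mouse 1 and WT mouse 5, the mice farthest from the median of miR-183-5p, r was 0.363 (permutation p = 0.392, n = 8), so that the relation over all mice rests in part on them, and leaving out the ends also narrows the range. Without WT mice 1 and 3 r was 0.919 (permutation p = 0.00092, n = 8), and without PiZ mouse 1 alone it was 0.598 (permutation p = 0.0711). After genotype and file set means were taken out, r was 0.853 over the 10 mice (permutation p = 0.00252). The permutation shuffled these residuals freely, without allowing for the fitted terms, so this p may be too small. For miR-182-5p and miR-96-5p r was 0.514 and rho 0.624 (permutation p of 0.128 and 0.0604, adjusted p of 0.128 and 0.181), and without the mice farthest from the median of miR-96-5p, again PiZ mouse 1 and WT mouse 5, r was -0.058 (permutation p = 0.878). For the neighbours miR-183-5p and miR-96-5p r was 0.606 and rho 0.236 (permutation p of 0.0626 and 0.511, adjusted p of 0.0939 and 0.511), and r was -0.633 without those 2 mice (permutation p = 0.0934). No correlation was computed within a genotype or a file set, which hold 5 mice each.

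**Figure D4:**
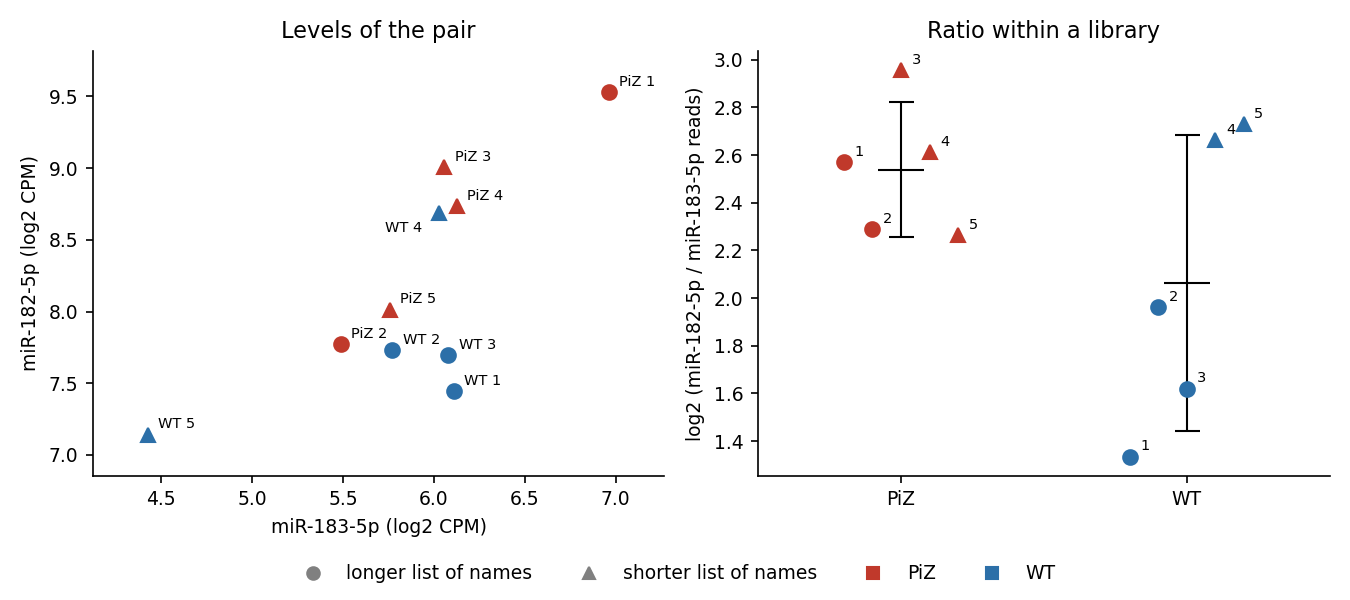
Left, log2 CPM of miR-182-5p against miR-183-5p in 10 mice; right, the log2 ratio of their reads by genotype, with the mean and SD, and marker shape for the list of names. PiZ mouse 1 and WT mouse 5 stand at the ends of the left plot. In the right plot WT mice 1 to 3, of the longer list (1.34 to 1.96), lie below all PiZ mice (2.26 to 2.96). WT mice 4 and 5, of the shorter list (2.66 and 2.73), lie within the PiZ range.

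The 3p arms were almost unread. miR-182-3p, listed only in the longer-list files, had 0 reads in 2 PiZ and 3 WT mice, against 3383 reads of miR-182-5p there, which allows a 3p share of up to 0.0887% if 3 reads are taken as the limit that a count of 0 allows (95% exact binomial interval 0 to 0.109%). miR-183-3p, listed only in the shorter-list files, had 2 reads, both in PiZ mouse 4, and 0 in WT mice 4 and 5, or 0.0794% of the reads of both arms in those 5 libraries (95% exact binomial interval 0.00961 to 0.286%). miR-96-3p had 2 reads in PiZ mouse 2 and 1 in WT mouse 4, or 0.490% of the reads of both arms (0.101 to 1.43%). Differences between PiZ and WT in these arms were not detectable at this depth.

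The 2 runs of a library gave near values for the abundant arms. The ratio of run 1 to run 2, each scaled to the reads of its run, lay between 0.864 and 1.06 for miR-182-5p and between 0.755 and 1.10 for miR-183-5p over the 10 libraries. For miR-96-5p, with 9 to 111 reads per library, it lay between 0.512 and 1.42. All member counts in the files were whole numbers.

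The miRNAs whose pattern over the 10 mice was most like that of the cluster were ranked by Pearson's r of log2 CPM, as a description. The same libraries, scaling and genotype contrast enter each value. miR-183-5p was the third most like miR-182-5p of 335 others, and miR-96-5p was at place 62. For miR-183-5p, miR-182-5p was at place 2 and miR-96-5p at place 5. The first for each was miR-205-5p, known from squamous and glandular epithelia, with r of 0.899 to miR-183-5p and 0.801 to miR-182-5p. It had only 2 to 34 reads per library and averaged 2.37 ± 1.31 CPM over PiZ mice against 1.44 ± 0.65 CPM over WT mice (SD, n = 5 each). After it came miR-106b-3p (r = 0.671), miR-200b-3p (0.608), miR-382-5p (0.577) and miR-199a-5p (0.533) for miR-183-5p. For miR-182-5p they were miR-34c-3p (0.776), miR-300-3p (0.743), miR-582-5p (0.742) and miR-382-5p (0.739), of which the first 3 were higher in PiZ liver in edgeR (adjusted p of 0.0151, 0.0318 and 0.0187). All 4 were near the floor in WT mice, with WT means from 0.32 to 3.72 CPM. Their lowest library had 0 reads of miR-34c-3p, miR-582-5p and miR-382-5p and 1 read of miR-300-3p.

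miRNAs of sensory and neural tissue were set beside the cluster. Of 11 on the list, 6 passed the filter, with a median log2 fold change of 0.043. In edgeR, DESeq2 and limma-voom 0 of these 6 passed, against 31, 50 and 7 of all 336 miRNAs. At an unadjusted p under 0.05 in edgeR were 0 of the 6 and 82 of the 336. With shares this low over all miRNAs, 0 of 6 says little about the list. miR-125b-5p, known in neurons and many other cells, was the most abundant, at 849.5 ± 455.1 CPM over PiZ mice against 1085 ± 468.3 CPM over WT mice (log2 fold change -0.30, adjusted p = 0.717, edgeR). miR-128-3p, a brain miRNA, averaged 62.8 ± 17.3 CPM over PiZ mice against 47.6 ± 7.20 CPM over WT mice, and miR-132-3p, induced by neuronal activity, 36.0 ± 5.82 CPM over PiZ mice against 27.97 ± 8.45 CPM over WT mice (SD, n = 5 each; adjusted p of 0.395 and 0.415). The remaining 3, miR-7a-5p, miR-212-5p and miR-184-3p, averaged 2.85 to 5.33 CPM in PiZ and 3.66 to 5.92 CPM in WT liver.

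Marker miRNAs of the cell types that whole liver can hold are given because the cluster is known from epithelia. The 7 biliary-epithelial markers summed to 1066 to 1274 CPM in PiZ and 1240 to 1734 CPM in WT mice, and in PiZ mouse 1, which had the most of each cluster arm, they summed to 1113 CPM. The sum is mostly miR-31-5p and miR-203-3p, whose log2 fold changes were negative (-0.56 and -0.29, edgeR adjusted p of 0.133 and 0.472). The other 5 markers, all of the miR-200 family, had positive ones, from 0.084 for miR-200b-3p to 0.62 for miR-200a-3p (edgeR adjusted p of 0.891 and 0.109). For miR-200a-3p and miR-141-3p, 2 of the 7, all PiZ mice lay above all WT mice. Groups that did not overlap, in either direction, were found for 30 of all 336 miRNAs (8.93%). These 2 markers had nearly the same values, with 8.58 CPM each in WT mouse 1 and 20.6 CPM each in PiZ mouse 5. Whether they share reads was not tested, so they need not be separate signals. The median over the 7 was 0.18, and 0 of them passed. Across the 10 mice, as a description, the log2 sum of a list had r with miR-182-5p of -0.612 (biliary), -0.434 (sensory and neural), 0.337 (hepatocyte), 0.344 (endothelial), 0.392 (erythroid and platelet), 0.505 (pancreas), 0.523 (immune) and 0.523 (mesenchymal). With miR-183-5p r lay between -0.349 (biliary) and 0.226 (pancreas).

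The 4 pancreas markers summed to 12.2 to 80.9 CPM in PiZ and 5.74 to 17.2 CPM in WT mice, with 24.1 CPM in PiZ mouse 1. 2 of the 4 were called higher in PiZ liver, miR-217-5p and miR-216b-5p (edgeR, adjusted p of 0.0297 and 0.00303). Each averaged only 0.0303 CPM over WT mice, near the floor, and so passed the filter through PiZ mice alone. In PiZ mouse 5 they had 0 and 1.32 CPM. For miR-216b-5p all PiZ mice lay above all WT mice. DESeq2 called 3 of the 4 and limma-voom 0, while over all 336 miRNAs edgeR called 31, DESeq2 50 and limma-voom 7. miR-375-3p stood at -0.077 on the log2 scale (edgeR adjusted p = 0.932). The 6 immune markers summed to 1895 to 3034 CPM in PiZ and 911.5 to 2171 CPM in WT mice, highest in PiZ mouse 1. Of these, 4 had a positive and 2 a negative log2 fold change, and those of miR-142-5p and miR-146a-5p were 1.03 and -0.13 (edgeR adjusted p of 0.216 and 0.924). For 1 of the 6, miR-223-3p (0.77, edgeR adjusted p = 0.0632), all PiZ mice lay above all WT mice. Groups without overlap, in either direction, were found for 30 of all 336 miRNAs (8.93%). The 4 erythroid and platelet markers summed to 310.4 to 1750 CPM in PiZ and 259.3 to 1079 CPM in WT mice. All 4 had a positive log2 fold change, with a median of 1.34, and 0 passed in edgeR. It was 1.27 for miR-451a and 0.25 for miR-486-5p, which is counted jointly with miR-3107-5p (edgeR adjusted p of 0.119 and 0.816).

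The endothelial pair, both arms of miR-126a, summed to 23350 to 28790 CPM in PiZ and 7895 to 41270 CPM in WT mice (log2 fold changes of 0.084 for the 3p arm and 0.064 for the 5p arm, adjusted p of 0.892 and 0.948, edgeR). The 4 mesenchymal markers summed to 9572 to 14580 CPM in PiZ and 5558 to 16650 CPM in WT mice and did not share a sign. The log2 fold change was 0.27 for miR-143-3p and 0.34 for miR-199a-3p, counted jointly with miR-199b-3p (edgeR adjusted p of 0.605 and 0.331). It was -0.50 for miR-145a-5p and -0.044 for miR-214-3p (edgeR adjusted p of 0.196 and 0.949). The 5 hepatocyte markers were the most abundant list, with 216300 to 356400 CPM in PiZ and 87500 to 304700 CPM in WT mice and 3 positive and 2 negative log2 fold changes. The most abundant, miR-192-5p and miR-148a-3p, were at 0.10 and 0.92 (edgeR adjusted p of 0.922 and 0.0947), and all PiZ mice lay above all WT mice for miR-148a-3p. The negative ones were -0.48 for miR-122-5p, with all PiZ mice below all WT mice, and -0.46 for miR-194-5p (edgeR adjusted p of 0.119 and 0.233). Such separate groups, in either direction, were found for 30 of all 336 miRNAs (8.93%). The cell type lists other than pancreas held 7 biliary-epithelial, 4 erythroid and platelet, 6 immune, 2 endothelial, 4 mesenchymal and 5 hepatocyte markers, all tested. Among them edgeR called 0 markers (11 were under 0.05 before adjustment), DESeq2 4 and limma-voom 0. Over all 336 tested miRNAs edgeR called 31 (82 were under 0.05 before adjustment), DESeq2 50 and limma-voom 7. No marker was at 0 in all libraries. The part of any of these cell types in the cluster's levels was not tested.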

How the data were processed

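Per the labels' protocols, RNA came from snap-frozen liver (miRNeasy), TruSeq small RNA kits gave the libraries, and every library had 2 technical runs. What the authors deposited are estimated counts, 1 value a mature miRNA, not normalized and whole but for 19 to 32 values a file. CASAVA is named in the submitters' processing notes. No source used here gives the aligner, build, miRBase release or treatment of multiply matching reads.

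The runs were summed and rounded. The 880 names found in every file, at least 99.999% of the reads of each library, were filtered (filterByExpr, 336 kept) and scaled (TMM). The genotype term of a model that also held the file set was tested by the quasi-likelihood method of edgeR 4.0.16, with p-values adjusted after Benjamini-Hochberg and called at 0.05. SEs are the fold change over the square root of F. log2 CPM used a prior count of 2. DESeq2 1.42.0 and limma 3.58.1 (R 4.3.3) gave alternatives, scipy 1.17.1 and numpy 2.4.6 (Python 3.11.15) the permutation tests (all splits of mice for a difference, 100000 resamples for a correlation), matplotlib 3.10.9 the plots. The fit was tested on simulated data.

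Members, lists and alternatives were chosen with earlier results of these data known. Named miRNAs are the cluster arms, their seed relatives, the 5 most like miR-183-5p and miR-182-5p, the 2 most abundant tested markers of each list and the tested sensory and neural list. Outside this rule, miR-217-5p, miR-200a-3p, miR-141-3p, miR-223-3p, miR-145a-5p, miR-214-3p, miR-122-5p and miR-194-5p were named after their values were seen. miR-142a was matched to rows named miR-142, and miR-486-5p and miR-199a-3p to joined names. All 6 members matched the RefSeq miRNA table. The alternatives were other scalings, filters and tests, no file set term, single runs, single file sets and mice left out.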

Additional observations from a re-analysis of the deposited data

Results flagged for a closer look

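In groups of 5 mice, a gap between the highest or lowest mouse and its nearest neighbour of more than 0.71 of the group's range was looked for on the log2 scale. Of 64 groups tested, 9 held such a gap, where chance gives about 1 in 20, and the groups share mice and are not independent. For miR-183-5p, WT mouse 5 was lowest (gap 0.799 of the range), at 21.2 CPM beside 54.3 to 68.6 CPM in the other WT mice. No PiZ gap passed for a cluster arm, PiZ mouse 1 included.

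The other gaps were in marker and neural miRNAs. PiZ mouse 5 was lowest for miR-143-3p (0.748), miR-128-3p (0.790) and miR-132-3p (0.764) and highest for miR-125b-5p (0.883). PiZ mouse 2 was lowest for miR-142-5p (0.877). WT mouse 3 was highest for miR-146a-5p (0.765) and miR-184-3p (0.861). For miR-216b-5p WT mouse 4 was highest (1.00), since it alone among WT mice had a read.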

How the results depend on the processing

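No arm changed the sign of its log2 fold change in any alternative but 1, and no arm passed in any but 1. miR-96-5p was -0.013 in the shorter-list file set alone, and miR-182-5p passed with no filter, at 0.80, where 852 miRNAs are tested. miR-96-5p was not tested where 10 CPM in 5 libraries were required. Over the mice left out in turn, the log2 fold change was 0.23 to 1.36 for miR-182-5p, 0.018 to 0.84 for miR-183-5p and 0.11 to 1.21 for miR-96-5p. The count of changed miRNAs, 31, moved more: it was 50 in DESeq2, 7 in limma-voom, 83 with no filter, 5 at 10 CPM in 5 libraries, 19 in run 1 alone, 0 in the shorter-list set alone (edgeR, 52 at an unadjusted p under 0.05), 1 without WT mice 1 and 3, 82 without these and PiZ mouse 5, and 8 to 53 with each mouse left out. The cause was not tested. The PiZ minus WT difference of the miR-182-5p to miR-183-5p log2 ratio was -0.084 in the shorter-list set alone and otherwise positive. The correlation of the pair was 0.598 to 0.843 with each mouse left out, and lost at 0.598 without PiZ mouse 1. The difference of the genotype effect between file sets ranged, with mice left out, from -1.37 to 0.36 for miR-182-5p, from -0.46 to 1.16 for miR-183-5p and from -1.75 to 0.82 for miR-96-5p. In that fit 18 miRNAs passed without WT mouse 2, and 0 did with any other mouse left out (edgeR, 3 to 17 at an unadjusted p under 0.05). No paired analysis was possible because the numbers that the titles share mark the 2 runs of a library, and mice of different genotype are different animals. Depth limits miR-96-5p and the 3p arms most.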
